A study of Mus musculus with 12 samples.

Results

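The 45 genes described here encode phase II conjugation enzymes of mouse liver: 10 UDP-glycosyltransferases (Ugt), 19 cytosolic glutathione S-transferases (Gst) and 16 sulfotransferases (Sult). They were taken by symbol from the 19938 genes with a probe set of their own on the array. The symbols start with Ugt1, Ugt2, Ugt3 or Sult, or with Gst, a class letter (a, k, m, o, p, t or z) and a digit. No measured value entered that choice. A further 17 genes with such symbols, among them the whole Ugt1a cluster, Gsta1 and Gsta2, are read only by 10 probe sets that carry several gene symbols, and are not members. The partners on these sets are other such genes, predicted genes or, for Gstp2, the member Gstp1. A pair of further shared sets reads Ugt3a1 and Ugt3a2, which are members through probe sets of their own.

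RNA of 12 livers from male mice was hybridised to Affymetrix whole-transcript arrays, 4 livers in each of 3 groups. One group was wild-type (WT) C57Bl6/J and untreated, and another was WT given lipopolysaccharide (LPS), a bacterial cell wall component, at 1 µg/kg. The third received the same dose and was homozygous for S534A, a serine-to-alanine exchange in p65, the NF-kB subunit that Rela encodes. That allele is a germline knock-in present in every cell, made in PTL1 embryonic stem cells and crossed back to C57Bl6/J after removal of the selection cassette by FLPe. How long after LPS the livers were taken is not stated in the labels. Livers of untreated S534A mice were not analysed here. A baseline difference of the genotypes and a difference in how they answer LPS therefore cannot be told apart. Untreated arrays are titled in another way than LPS arrays. Had they been processed as a separate batch, that batch and the LPS effect would be impossible to tell apart.

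Phase II enzymes join a polar group to drugs, hormones, bilirubin, bile acids and reactive by-products, which makes these water-soluble and ready for export into bile or blood. UDP-glucuronosyltransferases, here the Ugt2 members, sit in the endoplasmic reticulum and use UDP-glucuronate. Sulfotransferases use the sulfate donor PAPS in the cytosol, and glutathione S-transferases use glutathione. Hepatocytes are a main site of all these reactions. Transcription of many of these genes depends on the hepatocyte factor HNF4 and on the xenobiotic sensors CAR, PXR, the aryl hydrocarbon receptor and NRF2.

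The results turn most on the Ugt2b genes, which lie side by side on mouse chromosome 5, so the stretch just before the transcription start is shown for 7 of them. These 7 were chosen after their values were seen. Each line holds the 100 bases before the annotated start, 5′ to 3′ on the strand of the gene, from RefSeq on GRCm38.p6. Capitals mark 2 motifs, searched on both strands. AGGTCA is the core element bound by many nuclear receptors, and GTTANNNNTTAAC is a motif of 2 spaced parts, here called the GTTA motif, added to the search after the sequences were seen.
Ugt2b5: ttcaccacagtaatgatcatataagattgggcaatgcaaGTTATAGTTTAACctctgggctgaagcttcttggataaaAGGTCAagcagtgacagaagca
Ugt2b36: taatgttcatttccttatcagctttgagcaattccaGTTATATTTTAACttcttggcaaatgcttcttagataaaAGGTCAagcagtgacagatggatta
Ugt2b37: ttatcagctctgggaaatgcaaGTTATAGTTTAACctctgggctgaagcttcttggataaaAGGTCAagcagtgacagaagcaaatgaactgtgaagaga
Ugt2b38: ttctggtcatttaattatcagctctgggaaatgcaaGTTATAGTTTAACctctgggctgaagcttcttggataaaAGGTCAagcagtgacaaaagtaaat
Ugt2b35: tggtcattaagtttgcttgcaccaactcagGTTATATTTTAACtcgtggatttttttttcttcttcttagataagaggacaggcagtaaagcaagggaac
Ugt2b34: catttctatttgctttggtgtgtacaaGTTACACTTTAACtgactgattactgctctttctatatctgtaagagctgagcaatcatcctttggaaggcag
Ugt2b1: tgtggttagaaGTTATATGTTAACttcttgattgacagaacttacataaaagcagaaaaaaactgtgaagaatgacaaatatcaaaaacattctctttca
The windows are, in that order, chr5:87140341-87140440 (minus strand), chr5:87092556-87092655 (minus), chr5:87254789-87254888 (minus), chr5:87424204-87424303 (minus), chr5:87000760-87000859 (plus), chr5:86906938-86907037 (minus) and chr5:86926504-86926603 (minus). In the first 4 the AGGTCA element ends 17, 20, 34 and 20 bases before the start, and the GTTA motif stands upstream of it, ending 49, 52, 66 and 52 bases before the start. Ugt2b35, Ugt2b34 and Ugt2b1 hold the GTTA motif, ending 58, 61 and 77 bases before the start, but no AGGTCA element in these 100 bases. Over the 250 bases before the start, global alignment gave 63.6% to 89.6% identical bases between pairs of the first 4, and 51.6% to 61.6% between all other pairs of the 7. These 4 promoters are therefore not independent of each other, and their transcripts may share probe signal.

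RefSeq held an entry for 41 of the 45 genes, with 52 promoters in all. In the 250 bases before the start, the GTTA motif was found in 8 of these 52 (15.4%), those of the 7 genes above and of Ugt3a1, against 0.17% of all 32851 promoters. That motif was added after the 7 sequences above were seen. Their matches were thus fixed in advance, and the shares do not measure enrichment. AGGTCA was found in 9 of 52 (17.3%) against 14% of all promoters. Within 50 bases of the start it was found in 4 of 52 (7.69%), those of Ugt2b5, Ugt2b36, Ugt2b37 and Ugt2b38, against 2.75%. These 4 are the related promoters shown above, and the 50-base window was not among the rules set beforehand. They are thus not independent matches and do not measure enrichment either. TGACNNNGC, the core of the antioxidant response element, was found in 3 of 52 (5.77%), those of Gsta3, Gstm5 and Gstm7, against 10.2%. GCGTG, the core of the xenobiotic response element, was found in 8 of 52 (15.4%) against 28.2%. Matches of letters are descriptions and do not show binding.

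Medians of the 12 arrays lay between 6.15 and 6.32 on the log2 scale, and arrays of one group correlated at 0.983 to 0.996. The labels do not say that each liver came from a separate animal, so the p-values cover only the spread among the arrays at hand, and the number of arrays limits their precision. The mean over 6 of 6 hepatocyte markers ran from 13.61 to 13.66 in untreated, 13.65 to 13.69 in WT LPS and 13.60 to 13.65 in S534A LPS livers. Within that list Ttr was lower (-0.20, limma adjusted p = 0.0121) and Fgb higher (0.18, 0.0185) in WT LPS than in untreated livers, so its mean joins changes in both directions. A total of 3 arrays carried exocrine pancreas transcripts. The mean over 8 of 10 pancreas markers was 8.28 on WT LPS 2, 6.80 on WT LPS 3 and 9.16 on S534A LPS 3, and lay between 5.88 and 6.30 on the untreated arrays. Untreated livers 2 and 4 stood apart from untreated livers 1 and 3 in clock genes. Neutrophil markers, 6 of 6 higher in WT LPS, ran from 5.57 to 5.63 in untreated, 7.00 to 7.43 in WT LPS and 7.60 to 7.93 in S534A LPS livers. The mean over sinusoidal endothelium markers ran from 9.42 to 9.68, 8.75 to 9.18 and 8.80 to 8.99 in the same order, and that over Kupffer cell markers from 8.89 to 9.25, 8.47 to 9.08 and 8.73 to 9.01. At limma adjusted p under 0.05, 4 of 6 endothelium markers were lower and 1 higher in WT LPS than in untreated livers. Of 6 Kupffer cell markers 3 were lower and 1 higher, so both means join changes in both directions. In bulk liver, fewer cells of a type and less RNA per cell cannot be told apart.

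The first comparison asked what LPS did to these genes in WT liver. Conjugation enzymes fell and none rose. Of the 45 members, 17 were called lower and 0 higher (limma, adjusted p under 0.05 after Benjamini-Hochberg correction across all genes). Among all 19938 genes tested, 15.6% were called lower and 9.34% higher, so 37.8% of members stands beside 15.6%. The median log2 difference over the members was -0.21, against 0.02 over all genes, and 36 of 45 differences (80.0%) were below 0 against 45.3% of all genes. At an unadjusted p under 0.05, 24 members were lower (53.3%) and 1, the dim Sult6b1, was higher (0.14), against 20.8% and 14.7% of all genes and 35.6% and 19.1% of those with a mean of at least 7. The 4 WT LPS arrays all lay below the 4 untreated arrays in 19 members and above them in 0. For all genes, such separation was seen downward in 14.9% and upward in 9.78%. A mean of at least 7 over the 12 arrays was reached by 32 members and by 9159 of all genes. Of these 32 members 16 were called lower and 0 higher, against 27.3% and 15.0% of the 9159 genes.

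**Figure D1:**
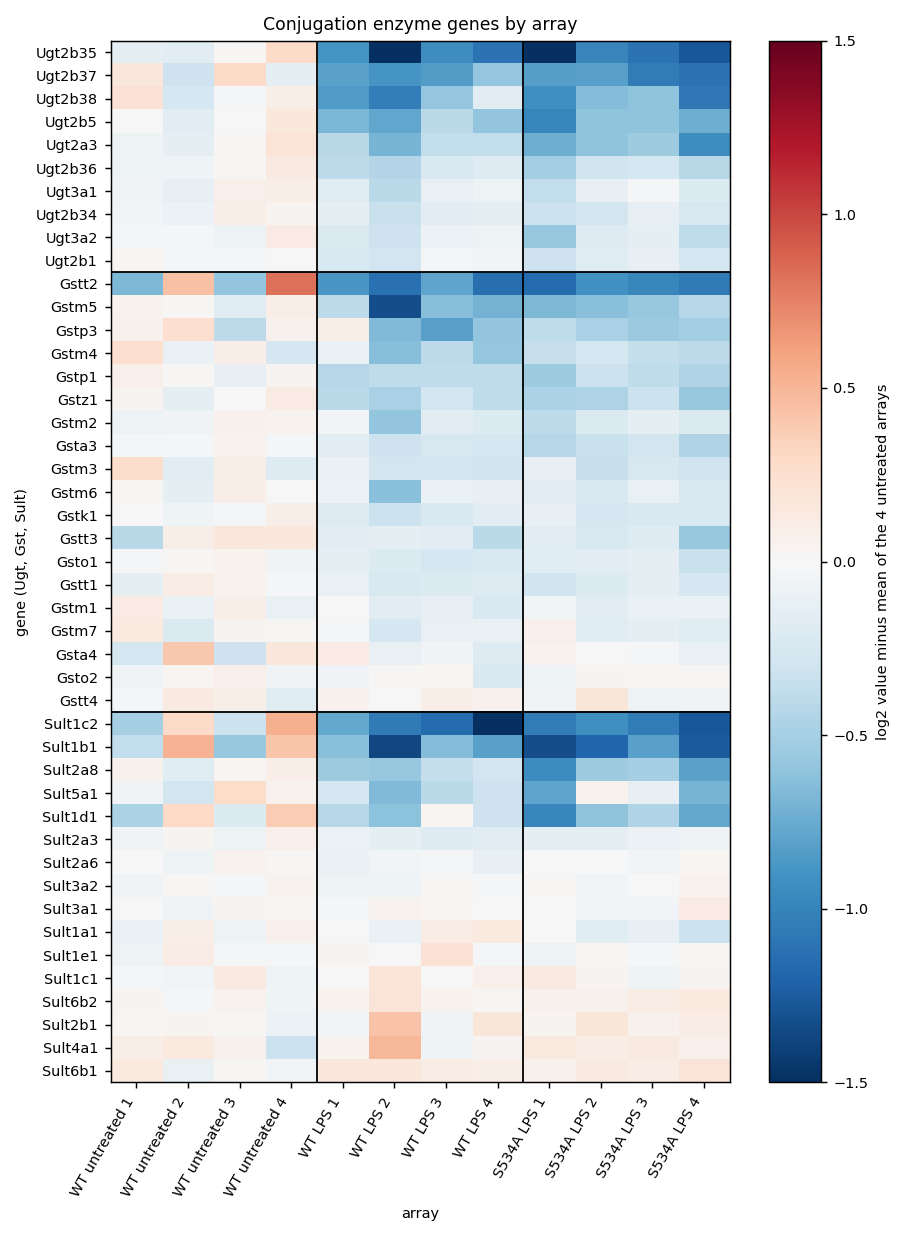
Each cell is the log2 value of 1 gene on 1 array minus the mean of the 4 untreated arrays, with genes in the order Ugt, Gst, Sult and black lines between families and groups; the colour range stops at 1.5 in either direction. All 10 Ugt and 18 of 19 Gst differences of WT LPS from untreated lie below 0, as do 8 of 16 Sult differences.

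Of the Ugt genes 6 of 10 were called lower, and the family median was -0.39. Ugt2b35 fell most among them. Its log2 values were 10.48, 10.45, 10.63 and 10.90 in untreated livers, 9.71, 9.11, 9.68 and 9.51 in WT LPS livers and 9.10, 9.63, 9.51 and 9.35 in S534A LPS livers. Every LPS array lay below every untreated array, and the LPS groups overlapped. The WT difference was -1.11 ± 0.15 (SE), 2.16-fold lower (limma adjusted p = 0.000141, n = 4 per group).

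Ugt2b37 and Ugt2b5 are close relatives of Ugt2b35. Ugt2b37 read 8.29, 7.80, 8.41 and 7.97 untreated and 7.31, 7.23, 7.28 and 7.53 after LPS in WT livers. The highest LPS array was below the lowest untreated one, and the fall was 1.71-fold (-0.78 ± 0.13; limma adjusted p = 0.000644). Ugt2b5, which glucuronidates steroids and drugs, read 12.26, 12.09, 12.24 and 12.41 untreated and 11.56, 11.48, 11.84 and 11.66 after LPS. The groups did not overlap here either, with a 1.53-fold fall (-0.62 ± 0.10; limma adjusted p = 0.000751).

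Ugt2a3, a glucuronosyltransferase of the neighbouring 2a branch, read 11.97, 11.90, 12.07 and 12.25 untreated and 11.63, 11.34, 11.68 and 11.68 after LPS in WT livers. All LPS arrays were lower, by 1.38-fold on average (-0.46 ± 0.11; limma adjusted p = 0.00652). Ugt2b38 read 11.34, 10.85, 11.08 and 11.20 untreated and 10.27, 10.08, 10.54 and 10.97 after LPS. It fell 1.57-fold (adjusted p = 0.0148), although WT LPS liver 4 overlapped the untreated range. Ugt2b36 fell 1.25-fold (-0.32 ± 0.08; adjusted p = 0.00996) with separated groups.

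The other 4 Ugt members did not pass the test in WT liver. Their differences were -0.19 for Ugt2b34 (adjusted p = 0.0577), -0.14 for Ugt2b1 (0.167), -0.18 for Ugt3a2 (0.201) and -0.19 for Ugt3a1 (0.153). Every WT LPS array lay below every untreated array in Ugt2b34, Ugt2b1 and Ugt3a2, while the groups overlapped in Ugt3a1. In Ugt2b1 the groups all but touched, with the highest WT LPS array at 12.7441 and the lowest untreated array at 12.7461. The same held for Ugt3a2, at 12.5066 and 12.5072. Ugt3a enzymes transfer other sugars than glucuronate. Along chromosome 5 the order of coding genes in RefSeq is Ugt2b34, Ugt2b1, Ugt2b35, Ugt2b36, Ugt2b5, Ugt2b37, Ugt2a3, Ugt2b38, Ugt2a1, Ugt2a2, Sult1b1, Sult1d1 and Sult1e1. The 6 consecutive genes from Ugt2b35 to Ugt2b38 all fell. Ugt2b34 and Ugt2b1, at one edge of the row, were called neither way. Of the sulfotransferases at the other edge Sult1b1 fell. In all, 7 of the 11 members in this row of 13 genes were called lower. Of the 4 genes with a AGGTCA element within 50 bases of the start, all 4 fell, and so did Ugt2b35 and Ugt2a3. Ugt2b35 holds that element further out, ending 210 bases before the start. These sets are small and their promoters related, and the 50-base window was not among the rules set beforehand. No link of the element with the falls is read from them.

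**Figure D2:**
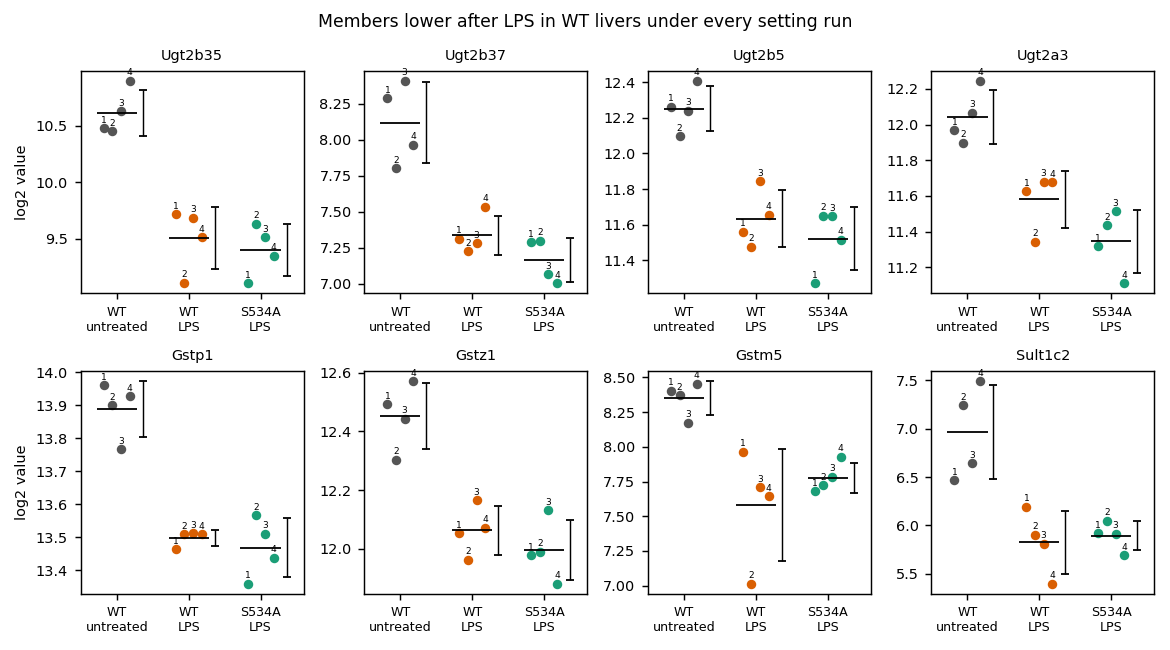
Log2 values per array of the 8 members called lower in WT LPS livers under every alternative run; points carry the replicate number, horizontal lines are means, and bars at the right of each group span the mean ± 1 SD (n = 4). In all 8 panels every LPS array lies below every untreated array, for example at 9.10 to 9.71 against 10.45 to 10.90 for Ugt2b35.

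Among glutathione S-transferases 8 of 19 were called lower in WT LPS livers, with a median difference of -0.23. Gstp1, the pi class enzyme and abundant in male mouse liver, read 13.96, 13.90, 13.77 and 13.93 untreated and 13.46, 13.51, 13.51 and 13.51 after LPS. The groups were clearly apart, and the fall was 1.31-fold (-0.39 ± 0.06; limma adjusted p = 0.000506). Its near-identical neighbour Gstp2 shares probes with it.

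Gstz1, the zeta class enzyme that also isomerises maleylacetoacetate in tyrosine breakdown, read 12.49, 12.30, 12.44 and 12.57 untreated and 12.05, 11.96, 12.17 and 12.07 after LPS. It fell 1.31-fold with no overlap (-0.39 ± 0.07; limma adjusted p = 0.00192). Gstm5, of the mu class, read 8.40, 8.37, 8.17 and 8.45 untreated and 7.96, 7.02, 7.71 and 7.64 after LPS. WT LPS liver 2 was the lowest by a wide margin, yet the other 3 also lay below all untreated livers, and the fall was 1.70-fold (-0.77 ± 0.16; limma adjusted p = 0.00292).

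Gsta3, an alpha class enzyme that conjugates aflatoxin epoxide in mice, read 13.01, 13.02, 13.09 and 13.02 untreated and 12.87, 12.73, 12.80 and 12.77 after LPS. The shift was small and without overlap, 1.18-fold lower (-0.24 ± 0.06; limma adjusted p = 0.00861). Gstk1, the kappa class enzyme of mitochondria and peroxisomes, fell 1.17-fold (adjusted p = 0.0121), and Gsto1, an omega class reductase, fell 1.15-fold (adjusted p = 0.0208).

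Gstt2, a theta class enzyme, had the largest mean difference of the family and the widest untreated group. It read 8.37, 9.48, 8.45 and 9.87 untreated, 8.16, 7.93, 8.26 and 7.91 in WT LPS and 7.89, 8.13, 8.06 and 7.99 in S534A LPS livers. Untreated livers 2 and 4 were far above livers 1 and 3, and all LPS arrays lay below both. The fall was 1.97-fold over all 4 untreated livers (-0.98 ± 0.27; limma adjusted p = 0.0185).

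Mu class genes lie in a cluster of close copies whose probes may share signal. Besides Gstm5, only Gstm4 of the 7 was called, 1.34-fold lower (adjusted p = 0.0227) with overlapping groups. Gstm1 read 13.35, 13.13, 13.31 and 13.11 untreated and 13.23, 13.05, 13.10 and 13.00 after LPS, which overlap (-0.13; adjusted p = 0.219). Gstm2 (-0.25, 0.108), Gstm3 (-0.24, 0.104), Gstm6 (-0.23, 0.149) and Gstm7 (-0.13, 0.331) were not called either. Of the remaining Gst genes, Gstp3 differed by -0.49 (adjusted p = 0.0578), Gstt1 by -0.19 (0.0537), Gstt3 by -0.21 (0.275) and Gsta4, which conjugates lipid peroxidation aldehydes, by -0.06 (0.797).

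Of the sulfotransferases 3 of 16 (18.8%) were called lower in WT LPS livers, close to the 15.6% of all genes, and the family median was -0.01. That median is set by genes that read dim on every array: of the 6 others 5 differences were below 0, 3 of them called, and 1 was above 0. Sult1c2 read 6.47, 7.25, 6.64 and 7.49 untreated and 6.19, 5.90, 5.81 and 5.40 after LPS. All LPS arrays were lower, by 2.20-fold on average (-1.14 ± 0.21; limma adjusted p = 0.00169). Its LPS values reach the range of members that are dim on every array, 4.07 to 6.06, so the size of this fold is uncertain and may be understated. Sult1b1, which acts on phenols and thyroid hormones, read 8.69, 9.59, 8.50 and 9.48 untreated and 8.44, 7.70, 8.41 and 8.25 after LPS. It fell 1.82-fold (-0.86 ± 0.24; adjusted p = 0.0188), again with untreated livers 2 and 4 on top.

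Sult2a8, a bile acid sulfotransferase of mouse liver, read 12.35, 12.10, 12.31 and 12.39 untreated and 11.76, 11.72, 11.93 and 12.01 after LPS in WT livers. The groups did not overlap, and the fall was 1.35-fold (-0.43 ± 0.11; limma adjusted p = 0.0101). Sult1a1, the main phenol sulfotransferase, read 11.01, 11.21, 11.04 and 11.18 untreated and 11.12, 11.01, 11.22 and 11.26 after LPS, with full overlap (0.04; adjusted p = 0.746). Sult1d1, which sulfates catecholamines, differed by -0.33 (adjusted p = 0.248), and Sult5a1 by -0.41 (0.129).

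Most of the uncalled sulfotransferases were dim. A total of 13 members had a mean below 7 over the 12 arrays, as did 54.1% of all genes, and of these only Sult1c2 was called. The other 12 read between 4.07 and 6.06 on every array. They are Gsto2, Gstt4, Sult1c1, Sult1e1 (the estrogen sulfotransferase), Sult2a3, Sult2a6, Sult2b1 (the cholesterol sulfotransferase), Sult3a1, Sult3a2, Sult4a1, Sult6b1 and Sult6b2. Sult3a1 is known as a female-predominant gene of mouse liver, and these mice were male. A fall in genes this dim may not be detectable.

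The untreated livers were not alike in some members. Clock genes set livers 2 and 4 apart: Dbp, a clock output factor, read 8.14, 11.19, 7.59 and 11.39 in untreated livers 1 to 4. Arntl, which encodes BMAL1, read 9.03, 6.29, 9.08 and 6.20 in the same order, the reverse pattern. Nr1d1, 1 of the 11 measured clock genes, did not split this way, at 11.63, 10.79, 10.62 and 11.71. In the WT LPS livers Dbp read 8.80, 9.39, 9.47 and 9.47, between the untreated pairs. The LPS groups were not uniform either. Arntl read 8.83, 7.37, 7.52 and 7.44 in WT LPS and 8.61, 7.93, 7.42 and 8.21 in S534A LPS livers. Livers 2 and 4 exceeded livers 1 and 3 by a gap of over 0.3 in 5 members (11.1%; 4.38% of all genes), namely Gsta4, Gstt2, Sult1b1, Sult1c2 and Sult1d1. They lay below by such a gap in 1 member, Ugt2b37 (2.22%; 2.14% of all genes).

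The size of the LPS difference in those genes depends on which untreated livers are used. With only untreated livers 1 and 3, the WT difference was -0.35 for Gstt2 (limma adjusted p = 0.0442), -0.40 for Sult1b1 (0.211), -0.73 for Sult1c2 (0.012) and 0.014 for Sult1d1 (0.977). With only untreated livers 2 and 4 it was -1.61 for Gstt2 (7.33e-06), -1.33 for Sult1b1 (0.000579), -1.55 for Sult1c2 (0.000112) and -0.67 for Sult1d1 (0.0149). The call on Sult1b1 in WT livers was thus lost with livers 1 and 3 alone, while Gstt2 and Sult1c2 were called with either pair. Ugt2b37 went the other way, -1.01 (6.58e-05) with livers 1 and 3 and -0.55 (0.005) with livers 2 and 4. Gstm4 was called with livers 1 and 3 (-0.61, 0.00583) and not with livers 2 and 4 (-0.25, 0.181). Calls with smaller differences also depended on the pair. With livers 1 and 3 alone Gstk1 (-0.21, 0.0502) and Ugt2b36 (-0.28, 0.0547) missed the threshold, and with livers 2 and 4 alone Sult2a8 (-0.39, 0.0636) and Ugt2b38 (-0.56, 0.0837) did. Gsto1 missed it with either pair (-0.23, 0.0514 and -0.19, 0.0945). Both selections were chosen after the data were seen, and the part of the clock in these differences was not tested.

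**Figure D3:**
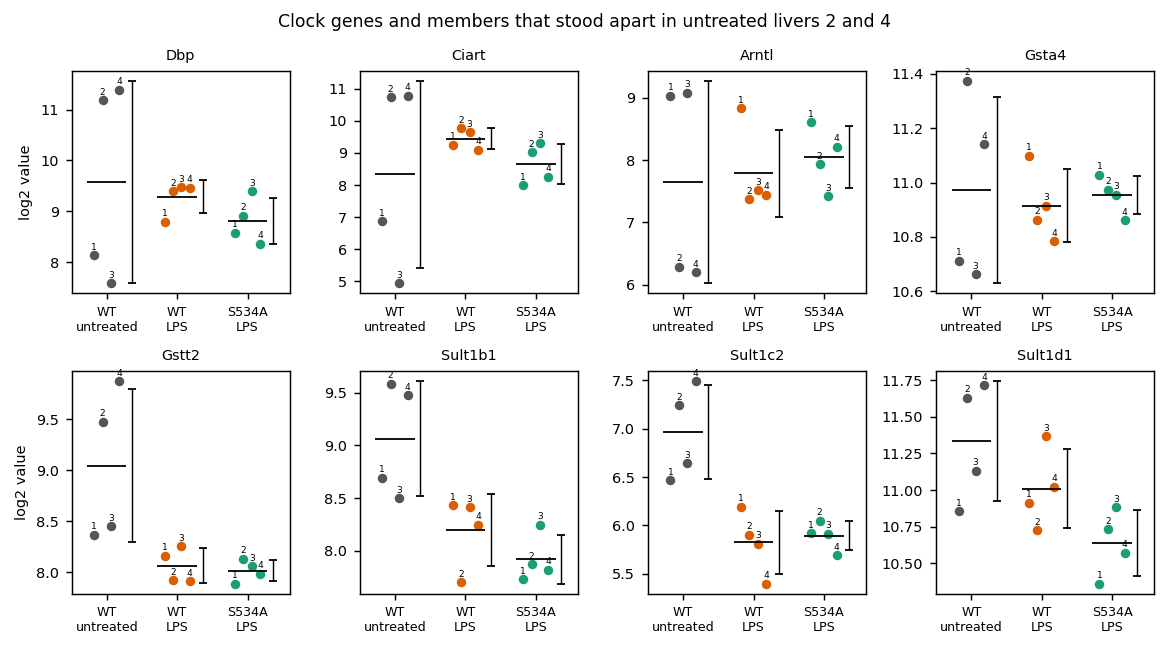
Log2 values per array of the clock genes Dbp, Ciart and Arntl and of the 5 members in which untreated livers 2 and 4 exceeded livers 1 and 3 by over 0.3; points carry the replicate number, lines are means and bars span the mean ± 1 SD (n = 4). Gstt2 in the LPS livers stays at or below 8.26, under both untreated pairs, whereas in Sult1d1 the WT LPS livers overlap untreated livers 1 and 3.

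The 3 arrays with pancreas transcripts also bear on the count. WT LPS liver 2 was the lowest of its group in 24 of the 32 members with a mean of at least 7. S534A LPS liver 3 was the highest of its group in 16. No such count was made over all genes, so these counts are not read as a trait of the members. Without the 3 arrays, 8 members were called lower in WT LPS livers, against 8.75% of all genes. These were Ugt2b35, Ugt2b37, Ugt2b5, Ugt2a3, Gstp1, Gstz1, Gstm5 and Sult1c2. The same 8 were called in every one of the 26 alternatives run. The 9 calls lost without these arrays kept their sign, for example -0.30 for Ugt2b36 (adjusted p = 0.0649), -0.41 for Sult2a8 (0.0617), -0.21 for Gsta3 (0.073), -0.72 for Sult1b1 (0.118) and -1.01 for Gstt2 (0.109). The part of the pancreas transcripts in these values was not tested. Single arrays decided 4 of the 17 calls. Gstt2 missed the threshold without untreated liver 2 (-0.83, limma adjusted p = 0.0559) or WT LPS liver 4 (-0.93, 0.0508). Sult1b1 missed it without untreated liver 2 (-0.69, 0.055), untreated liver 4 (-0.73, 0.0557) or WT LPS liver 2 (-0.70, 0.0529). Gsto1 missed it without untreated liver 3 (-0.19, 0.0569), WT LPS liver 3 (-0.19, 0.0617) or WT LPS liver 4 (-0.20, 0.0549). Gstm4 missed it without untreated liver 1 (-0.34, 0.064) or 3 (-0.39, 0.058) or WT LPS liver 2 (-0.36, 0.0617) or 4 (-0.38, 0.0696). In the other direction, Gstt1 passed without untreated liver 1 (-0.23, 0.0217) or WT LPS liver 1 (-0.21, 0.0453), and Ugt2b34 without untreated liver 2 (-0.22, 0.0481).

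The second comparison set S534A LPS livers against the same untreated WT livers. It shares these controls with the first, so the values are given side by side and their likeness is no separate evidence. A total of 21 members were called lower and 0 higher (46.7%; 16.0% and 11.0% of all genes were called lower and higher, and 27.5% and 17.4% of those with a mean of at least 7), with 37 of 45 differences below 0 and a median of -0.24. By family these were 9 of 10 Ugt, 8 of 19 Gst and 4 of 16 Sult genes.

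Of these, 16 were called in both comparisons. Ugt2b35 was 2.33-fold lower in S534A LPS livers (limma adjusted p = 5.12e-05) and Ugt2b37 1.93-fold lower (0.000107), against 2.16-fold and 1.71-fold in WT. Ugt2a3 read 11.32, 11.44, 11.51 and 11.11 in S534A LPS livers, 1.62-fold below untreated (0.000296), against 1.38-fold in WT. Sult2a8 read 11.35, 11.76, 11.80 and 11.48, also 1.62-fold lower (0.000349), against 1.35-fold.

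Sult1b1 was 2.21-fold lower in S534A LPS livers (0.00304), against 1.82-fold in WT, and with only untreated livers 1 and 3 it was still called (-0.68, 0.0284). Gstm5 was 1.49-fold lower (0.0155), against 1.70-fold, and Gstp1 1.34-fold lower (0.000226), against 1.31-fold. The 5 members called only in S534A LPS livers were Ugt2b1 (-0.22, 0.0364), Ugt2b34 (-0.24, 0.0203), Ugt3a2 (-0.32, 0.021), Gstt1 (-0.22, 0.0228) and Sult1d1 (-0.70, 0.0158). Sult1d1 rested on untreated livers 2 and 4, since with livers 1 and 3 alone it was -0.36 (0.199). With livers 1 and 3 alone the S534A calls on Gstm5, Gstt1 and Ugt3a2 were lost too. With livers 2 and 4 alone those on Ugt2b34 and Gsto1 were lost, and Ugt2b1 and Gstk1 were lost with either pair. Gstm4 was called only in WT (S534A -0.34, 0.0622). All 5 members called only in S534A LPS livers depended on single arrays. Without S534A LPS liver 1, for example, the limma adjusted p was 0.108 for Ugt2b1, 0.0646 for Ugt2b34, 0.0627 for Ugt3a2, 0.0712 for Gstt1 and 0.0538 for Sult1d1. Several other arrays also ended the call when left out: 6 for Ugt2b1 (adjusted p 0.0574 to 0.0924), untreated liver 3 (0.06) and S534A LPS liver 2 (0.0589) for Ugt2b34, untreated liver 4 (0.0595) and S534A LPS liver 4 (0.0595) for Ugt3a2, and untreated livers 2 (0.0715) and 3 (0.0602) and S534A LPS liver 4 (0.061) for Gstt1. Calls shared with WT were lost for Gstk1 without S534A LPS liver 2 (0.0553) and for Gsto1 without untreated liver 3 (0.0517) or S534A LPS liver 4 (0.0622). Gstm4 passed without untreated liver 4 (-0.42, 0.0237), and also without WT LPS liver 1 (0.0277) or 2 (0.0462), which changes only the estimate of spread. A call in one comparison and not in the other does not show that the genotypes differ.

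**Figure D4:**
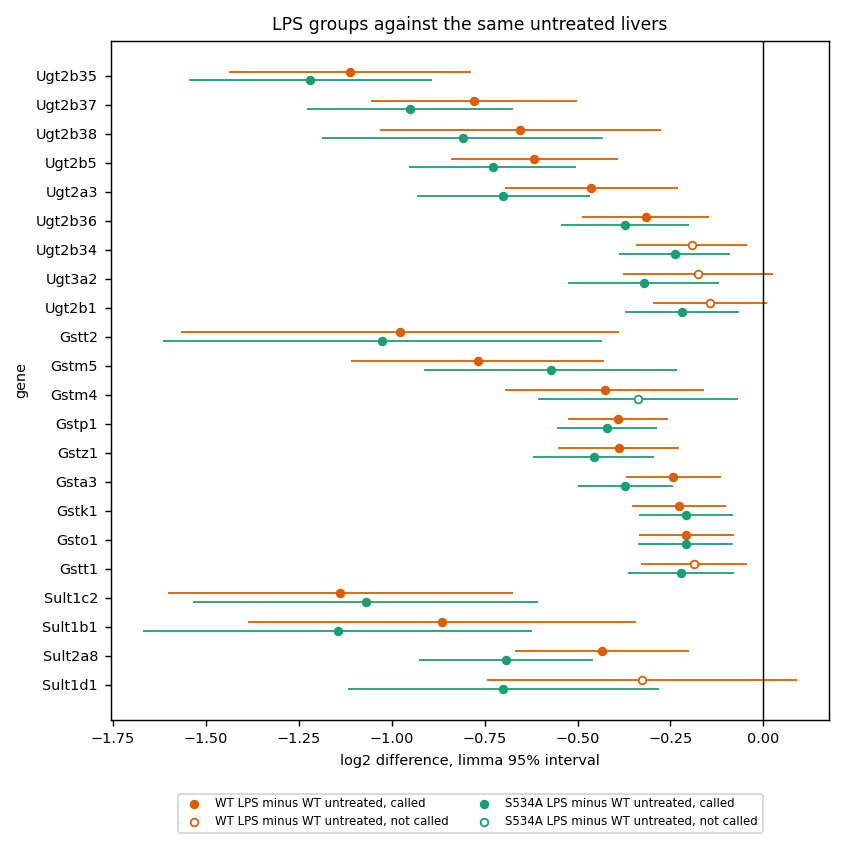
Log2 differences from the 4 untreated WT livers, with limma 95% intervals, for the 22 members called in WT LPS or S534A LPS livers; filled points passed the test and open ones did not. All points lie below 0, from -1.22 for Ugt2b35 in S534A to -0.14 for Ugt2b1 in WT, and the intervals of both genotypes overlap in each gene.

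The direct comparison of the genotypes after LPS asked whether the S534A exchange altered these genes. None of the 45 members was called in either direction by limma, and 4 (8.89%) had an unadjusted p under 0.05, all lower in S534A. At that unadjusted threshold 1.54% of all genes were lower and 4.21% higher, and 2.45% and 7.17% of those with a mean of at least 7. After adjustment, among all genes 0.166% were called higher and 0.00502% lower in S534A, so few genes were called anywhere. For genes with a mean of at least 7 these shares were 0.273% and 0.0109%. All 26 alternatives, including array weights and robust fits, also gave 0 called members. No member had separated groups, against 3.25% of all genes upward and 1.18% downward.

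The smallest p belonged to Sult1a1. It read 11.12, 11.01, 11.22 and 11.26 in WT LPS livers and 11.10, 10.93, 10.98 and 10.79 in S534A LPS livers. The S534A livers were lower on average with overlap, by -0.20 (95% interval -0.38 to -0.02; limma adjusted p = 0.723). Next came Sult2a8 (-0.26, 0.769), Ugt2a3 (-0.24, 0.844) and Gsta3 (-0.13, 0.853). Sult1d1 had the largest difference, -0.37 (interval -0.79 to 0.05; 0.953), and read 10.91, 10.72, 11.37 and 11.02 in WT against 10.36, 10.73, 10.88 and 10.57 in S534A LPS livers.

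Differences between the genotypes ran from -0.37 to 0.20 with a median of -0.03 (0.01 over all genes). They were below 0 in 28 of 45 members (62.2%; 47.1% of all genes) and in 9 of 10 Ugt genes, none of which was called. The 95% interval stayed within 0.5 log2 units of 0 for 39 members. It reached further for Gstm5, Gstt2, Sult1b1, Sult1c2, Sult1d1 and Ugt2b38, with outermost bounds of -0.80 and 0.54. Differences inside these bounds are not excluded by 4 arrays per group.

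**Figure D5:**
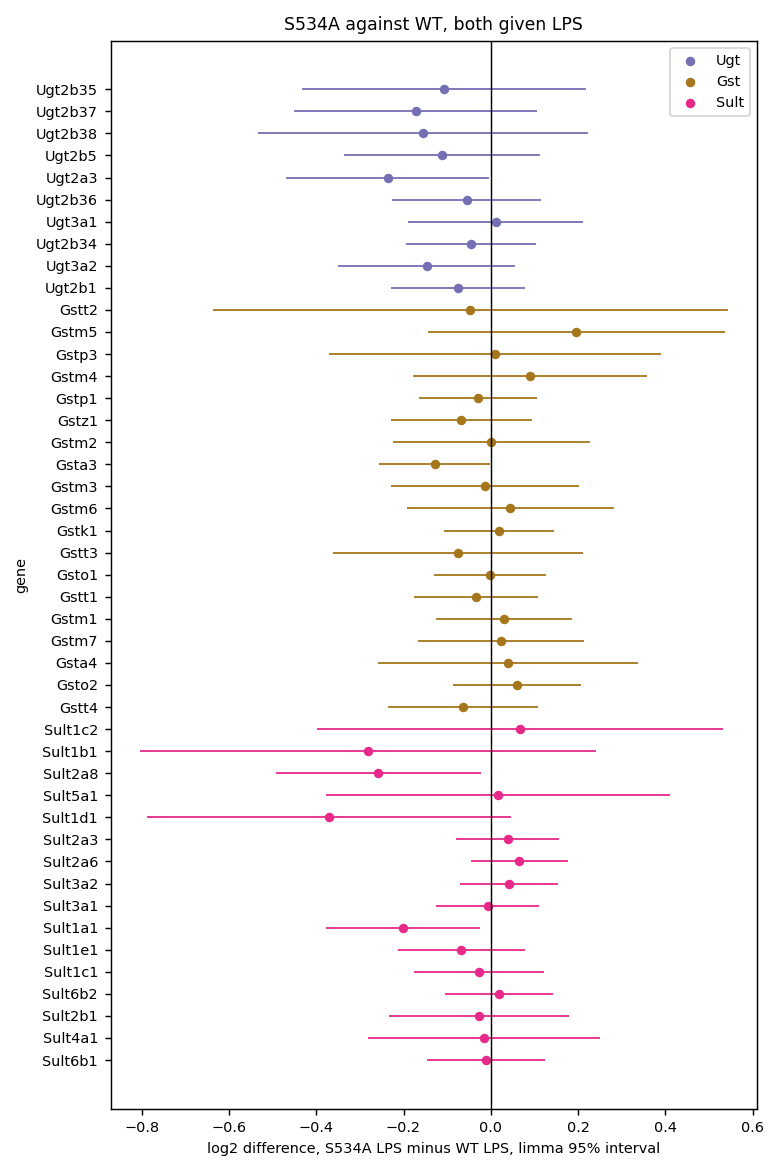
Log2 difference of S534A LPS from WT LPS livers for all 45 members, coloured by family, with limma 95% intervals (n = 4 per group). Points lie between -0.37 (Sult1d1) and 0.20 (Gstm5), and none of the 45 was called.

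The enzymes depend on cosubstrates, transporters and regulators, and 51 of 56 genes listed for these roles had a probe set of their own. The rest were not analysed here. In WT LPS livers 21 of the 51 were called lower, 8 higher and 22 neither way, with a median of -0.25. As shares these are 41.2% lower and 15.7% higher, against 27.3% and 15.0% of genes with a mean of at least 7 and 15.6% and 9.34% of all genes, so the share of rises is close to that of the brighter genes. Glutathione supply showed its largest falls at the first step of synthesis. Gclc, the catalytic subunit of glutamate-cysteine ligase, read 12.38, 11.85, 12.36 and 11.98 untreated and 11.35, 10.94, 11.18 and 10.95 after LPS in WT livers. The groups did not overlap, and the fall was 2.05-fold (-1.04 ± 0.14; limma adjusted p = 0.000158).

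Its modifier subunit Gclm fell by 0.72 on the log2 scale (1.62e-05) and Gss, glutathione synthetase, by 0.47 (0.00233). Gsr, which reduces oxidised glutathione, rose by 0.34 (0.00102), and the cystine carrier Slc7a11 by 0.26 (0.0399). Slc7a11 was dim, with means of 5.15 untreated and 5.42 in WT LPS livers, in the range of members that are dim on every array. The size of its rise is therefore uncertain. For sulfation, 3 of 6 genes listed under PAPS supply were lower and 0 higher. Slc26a1, a sulfate carrier, read 11.02, 11.14, 10.91 and 11.25 untreated and 10.26, 10.04, 10.16 and 10.29 after LPS, a separated fall (-0.89 ± 0.09; limma adjusted p = 1.12e-05). The PAPS synthase Papss2 (-0.45, 0.00615) and the Golgi PAPS carrier Slc35b2 (-0.35, 0.00448) fell too. Since Slc35b2 serves the Golgi, its fall is not read as a lower supply to the cytosolic sulfotransferases.

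Of 4 genes listed under UDP-glucuronate supply, only Slc35b1 was called, higher (0.41, 0.0355). Its part in that supply was not tested, so its rise is not read as a rise of the supply. Ugp2 (-0.40, 0.0719) and Ugdh (-0.19, 0.194), which make UDP-glucose and UDP-glucuronate, did not pass, nor did Slc35d1 (0.05, 0.805). Among 14 other conjugation genes, 5 were lower and 1 higher: Glyat, which joins glycine to acyl groups (-1.04, 0.000369), the methyltransferases Inmt (-0.69, 0.000163) and Tpmt (-0.48, 0.0182), the acetyltransferase Nat1 (-0.46, 0.00545) and the microsomal transferase Mgst1 (-0.18, 0.0462) fell, and the nicotinamide methyltransferase Nnmt rose (0.57, 0.000892). Nat1 was dim as well, with means of 5.22 untreated and 4.77 in WT LPS livers, so the size of its fall is uncertain. All 3 hydrolases fell, the epoxide hydrolases Ephx1 (-0.53, 0.000789) and Ephx2 (-0.27, 0.0344) and the glucuronidase Gusb (-0.34, 0.0352). Of 4 conjugate exporters, Abcc2 (-0.71, 0.000345) and Abcc3 (-0.28, 0.0198) fell.

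Regulators went both ways, with 4 of 9 lower and 2 higher. Nr1i3 (CAR) was 4.68-fold lower in WT LPS livers (-2.23 ± 0.28; limma adjusted p = 7.54e-05), and Nr1i2 (PXR, -0.63, 0.0142), Ppara (-0.58, 0.0391) and Nr1h4 (FXR, -0.44, 0.0235) fell. Keap1, which holds NRF2 in check, rose (0.62, 8.83e-06), as did Hnf4a (0.38, 0.00166). The transcripts of NRF2 itself, Nfe2l2 (-0.26, 0.154), and of the aryl hydrocarbon receptor, Ahr (0.29, 0.214), did not pass. NRF2 targets outside the conjugation families split: Txnrd1 (0.41, 4.64e-05) and Hmox1 (0.57, 0.00558) rose and Nqo1 fell (-0.60, 0.00949). Nqo1 was rather dim, with means of 6.69 untreated and 6.10 in WT LPS livers.

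Several of these values also moved with the untreated livers used. Nr1i3 read 10.22, 11.46, 10.47 and 11.62 in untreated livers, so livers 2 and 4 were again apart. Its fall was 3.1-fold (-1.63, limma adjusted p = 0.000102) with livers 1 and 3 alone and 7.07-fold (-2.82, 1.34e-06) with livers 2 and 4 alone. Ppara was called with livers 2 and 4 (-0.94, 0.000937) and not with livers 1 and 3 (-0.21, 0.401). The same held for Nr1i2 (-0.88, 0.00315 against -0.37, 0.162) and Nr1h4 (-0.57, 0.0191 against -0.31, 0.203). With livers 1 and 3 alone the calls on Papss2 (-0.29, 0.0746), Abcc3 (-0.24, 0.113), Ephx2 (-0.20, 0.227), Mgst1 (-0.13, 0.278), Slc35b1 (0.15, 0.262) and Slc7a11 (0.22, 0.2) were lost too, and Ahr passed (0.52, 0.0434). With livers 2 and 4 alone Nfe2l2 (-0.49, 0.00641) and Ugp2 (-0.69, 0.00133) passed. Gusb and Tpmt were lost with either pair.

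Without the 3 arrays with pancreas transcripts the calls on Nr1i2 (limma adjusted p = 0.0535), Nr1h4 (0.0968), Papss2 (0.0778), Nat1 (0.0723), Tpmt (0.116), Mgst1 (0.194), Ephx2 (0.152), Gusb (0.264), Abcc3 (0.184), Nqo1 (0.0935), Slc35b1 (0.103) and Slc7a11 (0.0775) were lost. Leaving out single arrays ended 8 calls. Abcc3 missed the threshold without untreated liver 4 (0.0558) or WT LPS liver 4 (0.0512), and Nr1h4 without untreated liver 2 (0.0595) or 4 (0.0666) or WT LPS liver 2 (0.0558). The others missed it without any of 6 arrays for Ephx2 (0.0559 to 0.0912), 6 for Gusb (0.0662 to 0.107), 11 for Mgst1 (0.0505 to 0.107), 8 for Ppara (0.0512 to 0.106), 5 for Slc35b1 (0.0584 to 0.101) and 8 for Slc7a11 (0.052 to 0.105).

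Between the genotypes, limma called none of the 51 genes and 5 (9.80%) had an unadjusted p under 0.05. At that threshold stood 5.76% of all genes and 9.62% of those with a mean of at least 7. Ahr read 10.27, 10.17, 10.51 and 10.49 in WT LPS and 9.41, 10.08, 9.95 and 9.81 in S534A LPS livers, a separated but uncalled difference of -0.54 (adjusted p = 0.331). Rxra (-0.24, 0.406), Hnf4a (-0.20, 0.588) and Ppara (-0.44, 0.798) were also lower on every S534A array and not called. In the other direction Slc7a11 (0.23, 0.64), Gsr (0.08, 1) and Nnmt (0.19, 0.969) were higher on every S534A array and not called; of these only Slc7a11 is among the 5. Arrays of the LPS groups were separated downward in 4 of the 51 genes, against 1.18% of all genes. They were separated upward in 3 (5.88%), against 3.25% of all genes and 5.10% of those with a mean of at least 7. With array weights Ahr (limma adjusted p = 0.0313) and Rxra (0.0304) were called lower. Against untreated livers, S534A LPS livers had 24 of these genes called lower (47.1%) and 7 higher (13.7%). For all genes these shares were 16.0% and 11.0%, and for those with a mean of at least 7 they were 27.5% and 17.4%.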

How the data were processed

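The values were deposited by the authors as log2 probe set values, made with RMA (background correction, quantile normalisation and probe set summary), per the submitters' processing notes; no RMA version or genome build of the probes is named there. Of 35556 probe sets, 21789 carry 1 symbol, 1621 several and 12146 none. Entrez identifiers matched 21698 of the first kind to a GRCm38.p6 gene table, and 91 kept the annotation's symbol. Only these entered, with the brightest probe set by mean over the 12 arrays for 999 genes with several (1 member, Gstm3), which left 19938 genes.

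Differences, standard errors and two-sided Benjamini-Hochberg adjusted p-values over all 19938 genes come from limma 3.58.1 in R 4.3.3 (lmFit, eBayes), fitted to all 12 arrays in 3 groups with no covariate and tested on simulated data. Called means adjusted p under 0.05, and in parentheses a log2 difference is followed by its adjusted p. Promoter sequences are RefSeq's and were matched by Entrez identifier.

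Named were the 5 brightest members per family, members called against untreated livers, with values on every array for the smallest p, the 5 smallest p between the genotypes, and the 3 smallest p per direction of each pathway sub-list with Nr1i2, Nr1i3, Nfe2l2, Ahr and Keap1. Members, lists and rules were chosen with earlier results of these data known. Replicates are numbered within a group. Alternatives were leaving out single arrays, other filters, thresholds, probe set rules, limma settings and scalings, a fit of 2 groups, a replicate block, leaving out the 3 arrays with pancreas transcripts and, chosen after the data were seen, only 2 of the untreated livers.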

Additional observations from a re-analysis of the deposited data

Results flagged for a closer look

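In 10 of 135 tests of a member in a group of 4 arrays, 1 array stood far from the other 3 by Dixon's gap test at its 95% critical value. Chance alone gives about 5% of tests, so this number of flags is not far from it and single flags carry little weight. WT LPS liver 2, 1 of the arrays with pancreas transcripts, was the low one for Gstm6 (log2 value 10.61), Ugt2a3 (11.34) and Ugt2b34 (12.31). WT LPS liver 1 was high for Gstm3 (12.48) and low for Gstp1 (13.46, nearest 13.51), and WT LPS liver 4 was low for Gstt3 (9.51). Among untreated livers, liver 3 was high for Gsta3 (13.09), liver 1 low for Gstt3 (9.49) and liver 4 low for Sult2b1 (5.38). S534A LPS liver 2 was high for the dim gene Gstt4 (5.69). The part of the pancreas transcripts in the 3 low values of WT LPS liver 2 was not tested.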

How the results depend on the processing

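Leaving out 1 array at a time gave 14 to 20 members lower and 0 to 1 higher in WT LPS livers (17 and 0 with all arrays), 16 to 24 lower in S534A LPS against untreated livers (21), and 0 between the genotypes. The 1 higher member, without untreated liver 1, was Sult6b1 (0.18, adjusted p = 0.0453), a dim gene. With 1 array left out, 13.1% to 15.8% of all genes were lower in WT and 13.3% to 18.2% in S534A against untreated livers. For the pathway genes the same ranges were 16 to 23 lower and 6 to 8 higher in WT, and 19 to 27 lower and 6 to 8 higher in S534A against untreated livers. Without the 3 arrays with pancreas transcripts, 8 members and 11 pathway genes were lower in WT, against 8.75% of all genes. At adjusted p under 0.01 the counts were 10 and 13 in WT and 12 and 15 in S534A against untreated livers. For all genes the shares at that threshold were 9.63% in WT and 10.5% in S534A. With only untreated livers 1 and 3, 13 pathway genes were lower in WT and 14 in S534A, against 12.4% and 13.0% of all genes. The WT difference of Sult1d1 then changed sign to 0.014, though it was called in neither case. With only untreated livers 2 and 4, 1 member, Sult6b1, was higher in WT (0.22, 0.0367) and in S534A (0.21, 0.0427). Array weights called 2 pathway genes lower between the genotypes, Ahr (-0.59, 0.0313) and Rxra (-0.28, 0.0304), and 0.662% of all genes. The remaining settings kept each count of calls within 1.5 times. Replicate numbers did not pair the samples: deviations of same-numbered arrays correlated at -0.27 to 0.21. A replicate block gave 20 members lower in WT and 23 in S534A against untreated livers, and 0 between the genotypes. Of all genes, 14.3% were lower in WT and 14.6% in S534A with that block. Dim genes limit the rest: 13 of 45 members had a mean below 7.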

Other observations

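The shared probe sets give values for genes that have none of their own, and no test was run on them. The Ugt1a probe set, which reads 8 genes including Ugt1a1, the bilirubin glucuronosyltransferase, gave 11.23, 11.73, 11.34 and 11.55 in untreated livers, 11.24, 11.13, 11.25 and 11.09 in WT LPS livers and 11.09, 11.17, 11.20 and 11.13 in S534A LPS livers. The group means were 11.46 ± 0.22, 11.18 ± 0.08 and 11.15 ± 0.05 (SD, n = 4), and WT LPS livers 1 and 3 lay just above the lowest untreated liver. The brighter of 2 probe sets shared by Gstp1 and Gstp2 gave 12.64 ± 0.14 untreated, 12.24 ± 0.04 in WT LPS and 12.21 ± 0.16 in S534A LPS livers.

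For the alpha class genes Gsta1 and Gsta2, a shared probe set gave 10.30, 10.78, 10.11 and 10.41 untreated, 10.68, 9.86, 10.28 and 9.63 in WT LPS and 10.70, 10.16, 10.29 and 10.14 in S534A LPS livers. These overlap in all groups. Shared probe sets of Sult2a genes and of Ugt2a1 and Ugt2a2 were dim, with group means of 4.12 to 4.49.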
